A study of Mus musculus with 132 samples.

Results

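The genes described here encode extracellular matrix and the receptors that bind it, 48 of the 25146 genes in a table of RNA-seq counts from mouse embryonic stem cells differentiating into blood. They were chosen by name, with earlier results of these data known, and all 48 were present in the table. By class they comprised 12 collagens, 8 laminins and other basement membrane components, 7 matrix glycoproteins, 3 genes of the hyaluronan and versican matrix, 7 cell-surface proteoglycans, 8 integrins and 3 matrix enzymes.

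The study asked how boundaries in the chromatin around Runx1, which encodes a transcription factor needed for the onset of blood formation, bear on gene expression during hematopoietic development. Wild-type (WT) cells were of the mouse line E14-TG2a, of 129/Ola origin. They were profiled undifferentiated at day 0 (mESCs kept with LIF, 2 libraries), as Flk1+ mesoderm sorted at day 4 (3 libraries, of clones B9.3, C6.1, C8.1) and as CD41+ CD45- Runx1+ hematopoietic progenitor cells (HPCs) at day 7 (the same clones, B9.3 as 2 libraries, 4 in all). In the knockouts, named P1-CTCF-KO and P2-CTCF-KO, a binding site of the architectural protein CTCF next to the P1 or the P2 promoter of Runx1 had been deleted with CRISPR/Cas9. Each knockout line was grown from a single colony and carries 2 distinct deletion alleles. P1-CTCF-KO was represented by clones E7.1, E7.2 and E9.1, with 3 mesoderm and 3 HPC libraries. P2-CTCF-KO was represented by clones D2.1, D10.1 and E9.1, with 3 mesoderm libraries and 5 HPC libraries, D2.1 and D10.1 being sequenced as 2 libraries each. All differentiated cells had been grown without serum in BMP4, with bFGF and Activin A from day 3, and sorted mesoderm then received SCF and VEGF. At day 7 adherent cells and cells in suspension were harvested together before sorting.

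The extracellular matrix is the network of secreted proteins and sugars that surrounds cells. Collagen IV, laminins, nidogens and perlecan build the sheet-like basement membrane, whereas fibronectin, fibrillins and fibrillar collagens form fibres, and versican, hyaluronan and their link protein form a hydrated gel. Integrins are receptors of paired alpha and beta chains that tie this matrix to the cytoskeleton, and syndecans and glypicans are proteoglycans of the cell surface that bind matrix and growth factors. In the embryo, mesoderm migrates over fibronectin, and blood progenitors leave an endothelium that rests on a basement membrane, losing firm attachment as they do so.

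Library totals ran from 7805102 to 24406998 counts, of which 68.1% and 76.3% in undifferentiated cells and 87.8% to 91% in the other libraries fell on ribosomal RNA or entries with several loci. The 48 genes together held 29031 and 57323 counts in the undifferentiated libraries, 6018 to 15509 in mesoderm and 831 to 7800 in HPCs. Levels are library-scaled counts (CPM, on 1 TMM scale over the 23 libraries), and 3 counts, taken here as the floor, equal 0.124 to 0.364 CPM in mesoderm and 0.209 to 0.608 CPM in HPCs, against 0.0164 and 0.0294 CPM in undifferentiated cells. A difference below those values was not detectable, and the floor covers counting error only. The sort markers followed their labels. Kdr, which encodes Flk1, was at 37.8, 26.8 and 16.9 CPM in WT mesoderm against 0.0928 and 0.108 CPM in undifferentiated cells. Itga2b, which encodes CD41, was at 40.9, 20.2, 18.5 and 33.9 CPM in WT HPCs against 1.04, 0.486 and 1.2 CPM in WT mesoderm. HPC libraries B9.3 of WT and D2.1 of P2-CTCF-KO stood apart, with 423 and 544 CPM on the 48 genes against 98.9 to 118 CPM and 101 to 230 CPM in the other libraries of their groups, and results that rest on them are given with and without them. The 2 undifferentiated libraries are labelled technical replicates of E14, not of the clones used at the later stages, and count a single culture. Per the Methods mESCs were grown with serum. Ribosomal RNA depletion is described for undifferentiated cells but not for mesoderm or HPCs. Stage, clone, medium and preparation therefore cannot be told apart in that comparison. In bulk RNA, fewer cells of a type and less RNA per cell cannot be told apart.

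The regions upstream of 4 genes are shown. Sdc3, Fbn1 and Hapln1 were among the 6 members that DESeq2 called lower in P2-CTCF-KO than in WT mesoderm. DESeq2 is the test the study used and an alternative here. Gpc4 moved against most members, and Fbn1, Hapln1 and Gpc4 carried accessible chromatin at their start in mesoderm alone. Each line gives the 250 bases before the annotated gene start (mm9), 5′ to 3′ on the gene's strand, with capitals marking the motif GGGCGG or its reverse complement in Sdc3, Fbn1 and Gpc4, and TGTGGT in Hapln1. The intervals are chr4:130348201-130348450 (plus strand) for Sdc3, chr2:125332175-125332424 (minus strand) for Fbn1, chr13:89679990-89680239 (plus strand) for Hapln1 and chrX:49518101-49518350 (minus strand) for Gpc4.
Sdc3: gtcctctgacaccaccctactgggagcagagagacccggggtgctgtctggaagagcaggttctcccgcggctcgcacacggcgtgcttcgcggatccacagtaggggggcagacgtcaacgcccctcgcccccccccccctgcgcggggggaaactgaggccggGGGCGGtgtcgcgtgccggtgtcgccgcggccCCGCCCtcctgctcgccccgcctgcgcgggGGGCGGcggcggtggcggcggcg
Fbn1: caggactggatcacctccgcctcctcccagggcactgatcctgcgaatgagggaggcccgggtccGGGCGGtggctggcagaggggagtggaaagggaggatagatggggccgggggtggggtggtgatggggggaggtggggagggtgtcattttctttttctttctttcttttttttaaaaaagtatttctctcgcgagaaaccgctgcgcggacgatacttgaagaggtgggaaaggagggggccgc
Hapln1: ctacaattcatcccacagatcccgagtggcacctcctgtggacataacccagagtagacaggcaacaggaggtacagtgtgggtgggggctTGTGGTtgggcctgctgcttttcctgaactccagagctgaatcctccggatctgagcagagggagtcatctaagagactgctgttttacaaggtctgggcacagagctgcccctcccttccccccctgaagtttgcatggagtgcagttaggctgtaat
Gpc4: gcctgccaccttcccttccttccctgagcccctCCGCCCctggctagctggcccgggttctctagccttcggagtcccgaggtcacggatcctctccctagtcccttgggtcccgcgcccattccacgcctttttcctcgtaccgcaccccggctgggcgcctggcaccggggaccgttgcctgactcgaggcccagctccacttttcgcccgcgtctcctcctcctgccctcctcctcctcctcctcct

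GGGCGG, the core of the GC box bound by Sp family factors, was present on either strand in these 250 bases for 36 of the 48 members (75%), against 40.3% of 24960 genes with a single annotated span, and the median GC content was 64.2% against 54.4%. CCAAT was found for 16 members (33.3% against 35.4%) and TATAAA for 3 (6.25% against 12.2%). TGTGGT, a form of the site recognised by Runx factors, was found for 4 members (8.33% against 12.6%). The letters AGATAA, as recognised by GATA factors, were in this window for 0 members against 9.19% of all genes. The 24960 genes include those with too few counts to be tested, and no share was taken over tested genes alone. None of these motifs contains another, and all are counts of letters in a window.

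Per kilobase of the counted span, exons and introns together, fibronectin (Fn1) was the highest member in WT mesoderm at 3.86 ± 1.97 CPM per kb (SD, n = 3), followed by the fibrillar collagen chain Col1a1 at 1.12 ± 0.605, perlecan (Hspg2) at 0.498 ± 0.241 and versican (Vcan) at 0.4 ± 0.161 CPM per kb. The libraries of these 3 overlapped one another. In undifferentiated cells the laminin chain Lama5 (0.796 ± 0.117 CPM per kb, n = 2) and Fn1 (0.683 ± 0.0409) were highest, and their difference was smaller than the spread of Lama5. In WT HPCs the mean was highest for Col1a1 at 0.841 ± 1.52 CPM per kb (n = 4), followed by Fn1 at 0.418 ± 0.513 and the integrin beta chain Itgb1 at 0.381 ± 0.123 CPM per kb. That order rested on library B9.3, without which Itgb1 was at 0.357 ± 0.139, Fn1 at 0.166 ± 0.113 and Col1a1 at 0.0818 ± 0.0464 CPM per kb (n = 3). In P1-CTCF-KO HPCs the highest means were those of Itgb1 (0.449 ± 0.12 CPM per kb), Col1a1 (0.429 ± 0.451) and Itga6 (0.425 ± 0.265). Their differences were smaller than the spread of any of them.

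**Figure D1:**
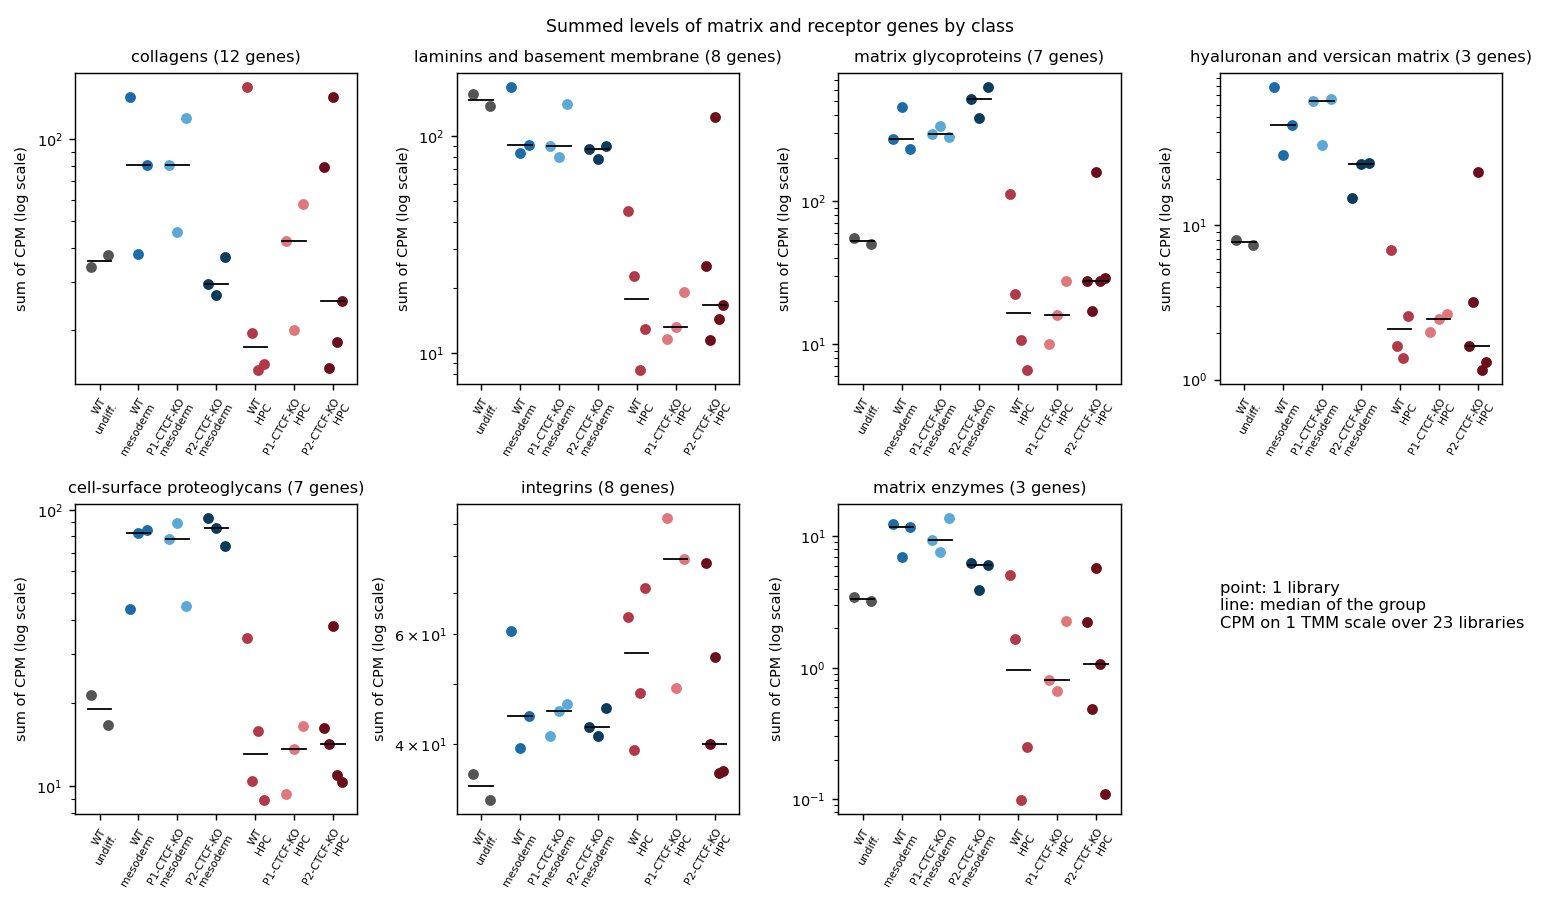
Summed level of each class of matrix and receptor genes (CPM, log scale) in each of the 23 libraries, by stage and genotype; points are libraries and lines are group medians. Matrix glycoproteins and the hyaluronan and versican genes had their highest medians in mesoderm, and in WT cells the medians of 6 classes were lower in HPCs than in mesoderm while that of the integrins was not.

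The plot of class sums shows the course of each class. In WT cells the 7 matrix glycoproteins summed to 50.4 and 55.3 CPM in undifferentiated cells, to 230 to 452 CPM in mesoderm and to a median of 16.5 CPM in HPCs. Most of that sum was Fn1, at 44.3 and 48.2 CPM in undifferentiated cells and 168 to 415 CPM in mesoderm. The laminins and basement membrane genes summed to 137 and 155 CPM in undifferentiated cells and to 83.4, 90.8 and 167 CPM in mesoderm, which overlapped since clone B9.3 lay above both undifferentiated libraries, and were at a median of 17.8 CPM in HPCs. The integrin sum was 32.6 and 35.9 CPM in undifferentiated cells, 39.4 to 60.7 CPM in mesoderm and 39.2 to 71.3 CPM in HPCs, with overlapping ranges at the latter stages.

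Mesoderm was compared with undifferentiated cells to ask how the matrix program is set up as mesoderm forms. Of 46 members that passed the count filter, 18 rose and 4 fell (edgeR quasi-likelihood test, Benjamini-Hochberg adjusted p under 0.05 and a log2 fold change beyond 1 in size), whereas 24.4% of all 12899 genes tested were called in either direction, 10.7% higher and 13.7% lower. The median log2 fold change of the members was 1.59, against -0.18 for all genes. Counting the undifferentiated culture once, with either of its libraries left out, kept 6 and 7 calls, among them Col23a1, Fbn2, Lama4, Hapln1 and Sdc3 (higher) and Gpc4 (lower). In those fits the lone library was taken to vary like the mesoderm libraries.

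Among the collagens 5 of 10 tested rose and 0 fell, by edgeR, against 10.7% and 13.7% of all genes. Col23a1, a transmembrane collagen, was at 0.0491 and 0.0687 CPM in undifferentiated cells and at 4.64, 3.64 and 4.56 CPM in mesoderm, a log2 fold change of 6.16 ± 0.45 SE (edgeR adjusted p = 1.8e-05). Col4a1 and Col4a2, the chains of the common collagen IV heterotrimer, rose by log2 fold changes of 3.34 and 3.50. Col4a2 was at 1.24 and 1.33 CPM in undifferentiated cells and at 24.1, 7.77 and 11.6 CPM in mesoderm. The genes lie head to head on opposite strands and overlap by 23 bases. Col1a1, a chain of fibrillar type I collagen, went from 0.333 and 0.118 CPM to 23.7, 7.17 and 25.8 CPM (log2 fold change 6.32 ± 1.78, adjusted p = 0.023 by edgeR). The minor collagen Col15a1 was called at a level of 1.1 CPM in mesoderm library B9.3 and 0 in C6.1 and C8.1, so that the mesoderm level was that of B9.3 alone. Col6a1 and Col6a2, at no more than 0.364 CPM in any WT library, did not pass the filter in this or any other comparison.

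Laminin alpha chains moved in opposite directions. Lama4, the alpha chain of vascular laminins, rose from 0.278 and 0.167 CPM to 15.1, 4.98 and 6 CPM (log2 fold change 5.25 ± 0.67, adjusted p = 0.00033 by edgeR). Lama5, an alpha chain of epithelial and early embryonic laminins, fell from 43.5 and 35.3 CPM to 3.95, 10.6 and 13.2 CPM (adjusted p = 0.0073 by edgeR). Nid2, a nidogen that links laminin to collagen IV, had a log2 fold change of -1.92 with an adjusted p of 0.049 by edgeR, a call kept in 2 of 10 alternatives (adjusted p up to 0.2). Lamb1, Lamc1, Lama1, Nid1 and Hspg2 were not called. The groups did not overlap for Lama4 and Lama5, and Lama4 stood highest in clone B9.3.

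Of the 7 matrix glycoproteins 3 rose, against 10.7% of all genes called higher. All 7 had a positive fold change, where the median log2 fold change of all genes was -0.18. Fbn2, a fibrillin of embryonic microfibrils, rose from 0.459 and 0.363 CPM to 37.1, 18.2 and 31.6 CPM (log2 fold change 6.12 ± 0.77, adjusted p = 0.00032 by edgeR). Fbn1, the other fibrillin measured, went from 1.12 and 0.981 CPM to 15.6, 9.23 and 12.4 CPM, and the adhesion-modulating tenascin Tnc rose by a log2 fold change of 3.94. Fn1 was at 48.2 and 44.3 CPM in undifferentiated cells and at 203, 415 and 168 CPM in mesoderm, which did not overlap but missed the threshold (log2 fold change 2.49 ± 0.94, adjusted p = 0.070 by edgeR). All 3 genes of the hyaluronan and versican matrix were called higher, Vcan least firmly. Hapln1, the link protein that fastens versican to hyaluronan, had 0 counts in both undifferentiated libraries and was at 21.6, 0.972 and 5.52 CPM in mesoderm, at least 409-fold higher against the floor of 3 counts per library, and at least 142-fold higher without clone B9.3. Has2, a hyaluronan synthase, went from 0.721 and 0.706 CPM to 6.44, 5.22 and 6.9 CPM, and Vcan from 7.3 and 6.75 CPM to 50.1, 22.5 and 32.1 CPM, each of its mesoderm libraries above both undifferentiated ones. The Vcan call (edgeR adjusted p = 0.036) was kept in 4 of 10 alternatives, with an adjusted p of up to 0.22.

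Of the 7 cell-surface proteoglycans 2 rose and 2 fell, against 10.7% and 13.7% of all genes. Sdc3, a syndecan, went from 0.53 and 0.343 CPM to 3.77, 2.67 and 3.84 CPM (log2 fold change 2.96 ± 0.41, adjusted p = 0.00052 by edgeR), while Sdc4, the syndecan of focal adhesions, fell by 2.57 on the log2 scale from 2.59 and 2.45 CPM to 0.464, 0.364 and 0.42 CPM. The glypican Gpc4 fell by 2.83 on the log2 scale, from 4.73 and 3.63 CPM to 0.754, 0.486 and 0.48 CPM (adjusted p = 0.00028 by edgeR), and its relative Gpc1 rose by a log2 fold change of 1.42. Among the integrins Itga4, the alpha 4 chain that binds fibronectin and VCAM1, rose from 0.0655 and 0.049 CPM to 1.74, 0 and 0.36 CPM (log2 fold change 3.69 ± 0.81, adjusted p = 0.0068), although 1 mesoderm library lay at 0 and the groups overlapped. Itga8 rose by a log2 fold change of 1.77 and the 6 other integrins were not called. Both metalloproteinases measured, the gelatinase Mmp2 and the membrane-bound Mmp14, rose, by log2 fold changes of 2.32 and 1.60, the call of Mmp14 being kept in 5 of 10 alternatives, whereas the lysyl oxidase Loxl2 was not called (1.38 ± 0.86, adjusted p = 0.25).

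**Figure D2:**
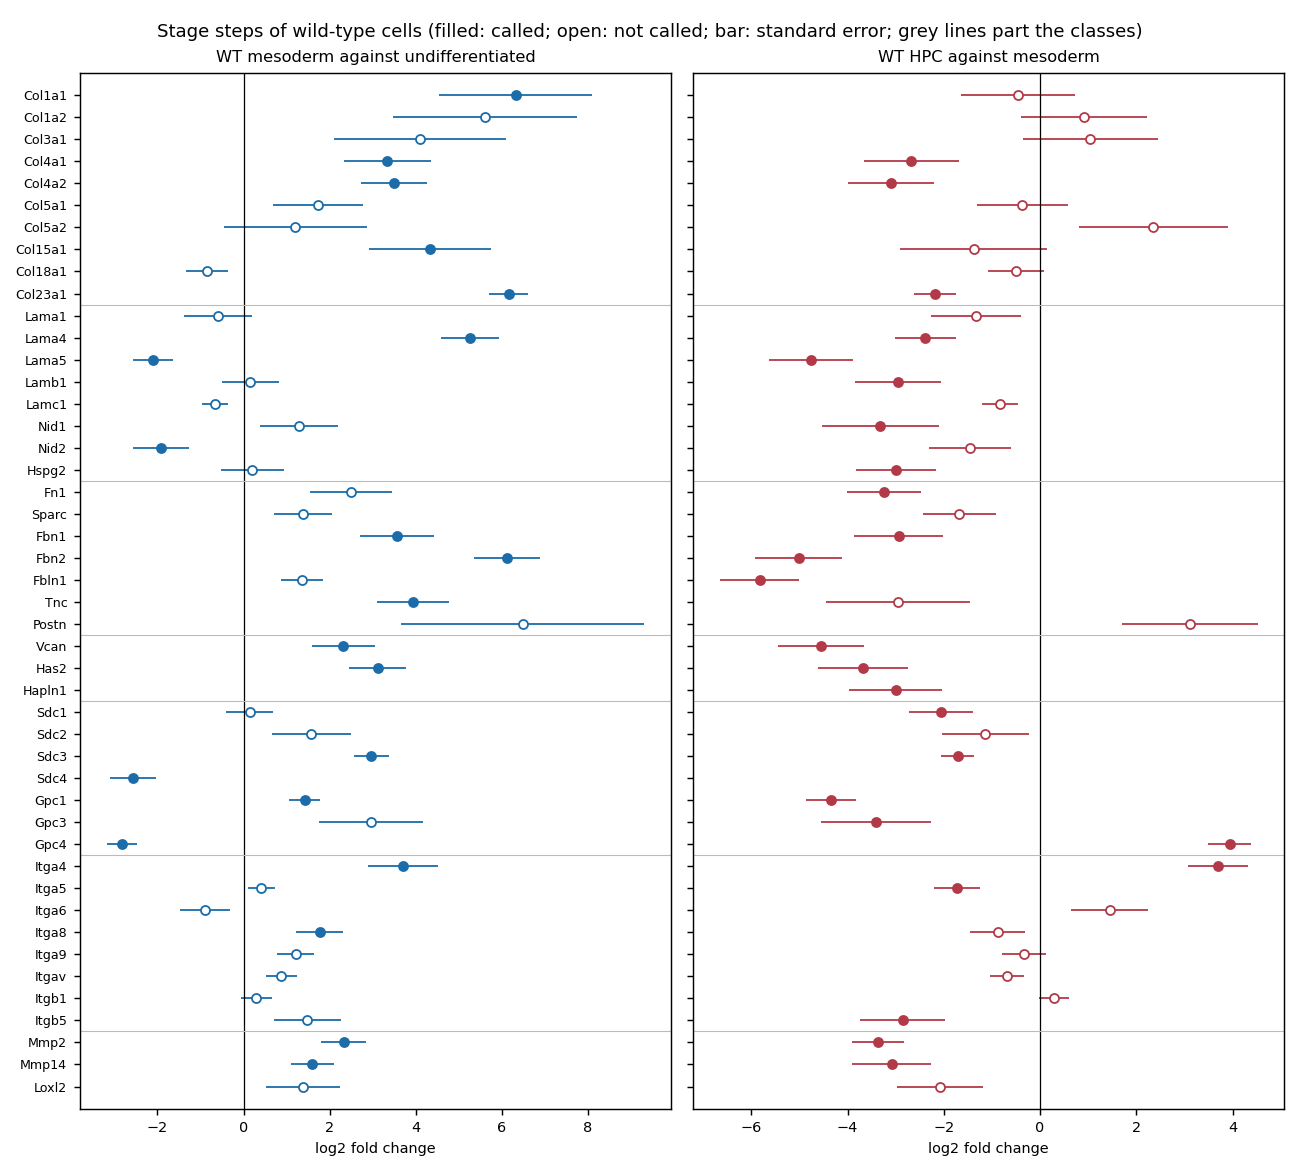
Log2 fold change of each member tested in WT cells, mesoderm against undifferentiated (left) and HPC against mesoderm (right), with its standard error; filled points were called and grey lines part the classes. Most members lie right of 0 in the left panel and left of 0 in the right panel; Hapln1, with 0 counts in undifferentiated cells, is left out of the left panel.

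The step from mesoderm to HPCs ran in the opposite direction for most members. Of 45 members tested in WT cells 2 rose and 23 fell, against 27.2% of all 9170 genes called in either direction, 13.3% higher and 13.9% lower. The median log2 fold change was -2.06 for the members and 0.01 for all genes. Gpc4 and Itga4 were the members that rose. The count of 23 lower members became 32, with the same 2 higher, when HPC library B9.3 was left out, and the median then was -3.75.

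Gpc4, called lower in the earlier step, was at 0.754, 0.486 and 0.48 CPM in WT mesoderm and at 9.53, 7.3, 12.9 and 7.5 CPM in WT HPCs, a log2 fold change of 3.94 ± 0.44 (adjusted p = 7.6e-06 by edgeR). Itga4 was at 9.88, 7.3, 13.4 and 11.4 CPM in WT HPCs, with a log2 fold change of 3.69 ± 0.62 over mesoderm (adjusted p = 0.00024 by edgeR). Every HPC library lay above every mesoderm library for both genes, and HPC library B9.3 lay within the range of the others. Itga4 overlaps the opposite-strand gene Cerkl, which held 40 counts over all libraries against 1124 for Itga4.

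Glypicans otherwise fell. Gpc1 was at 4.76, 8.02 and 8.34 CPM in WT mesoderm and at 0.429, 0.64, 0.296 and 0.0833 CPM in WT HPCs (log2 fold change -4.34 ± 0.52, adjusted p = 1.3e-05 by edgeR). Gpc3, which lies near Gpc4 on the X chromosome, was at 30.2, 67.8 and 67.3 CPM in mesoderm and at 18.9, 0.512, 0.888 and 0.666 CPM in HPCs (log2 fold change -3.41 ± 1.14, adjusted p = 0.027). Its highest HPC level was that of B9.3, and without that library the log2 fold change was -6.30. The glypican pair moved in opposite directions, Gpc3 spanning chrX:49625603-49967151 and Gpc4 chrX:49406194-49518100, both on the minus strand of mm9. Among syndecans Sdc1 and Sdc3 fell, by 2.06 and 1.71 on the log2 scale, and Sdc2 was not called with all libraries (-1.13 ± 0.91, adjusted p = 0.36).

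Fibronectin, fibrillins and fibulin fell. Fn1 went from 203, 415 and 168 CPM in WT mesoderm to 79.6, 19.8, 8.78 and 5.16 CPM in WT HPCs (log2 fold change -3.25 ± 0.77, adjusted p = 0.0034 by edgeR). Fbn2 went from 37.1, 18.2 and 31.6 CPM to 2.58, 0.384, 0.395 and 0.167 CPM (log2 fold change -5.02 ± 0.91, adjusted p = 0.00046 by edgeR). Fbln1, a fibulin of elastic fibres and basement membranes, was at 5.57, 5.83 and 9.96 CPM in mesoderm and at 0.429 CPM in HPC library B9.3 and 0 in the other HPC libraries (log2 fold change -5.83 ± 0.82, adjusted p = 8.5e-05 by edgeR). No library of one stage overlapped the other for these genes. Postn, the periostin of fibroblasts and heart valves, showed the reverse order of means, with 19.3 CPM in HPC library B9.3 against 0.25 to 0.395 CPM in the others, and was not called (adjusted p = 0.098).

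All 3 genes of the versican and hyaluronan gel fell, against 13.9% of all genes. Vcan went from 50.1, 22.5 and 32.1 CPM to 4.38, 0.256, 0.296 and 0.916 CPM (log2 fold change -4.55 ± 0.89, adjusted p = 0.00081 by edgeR). Has2 fell by 3.68 on the log2 scale (adjusted p = 0.0053), and Hapln1 was called with an adjusted p of 0.022. Hapln1 was the exception in its spread, its HPC libraries at 0.945, 1.41, 0.986 and 1.5 CPM overlapping mesoderm library C6.1 at 0.972 CPM. The metalloproteinases fell as well, Mmp2 from 2.61, 2.55 and 3.78 CPM to 0.687, 0.384, 0 and 0.0833 CPM (log2 fold change -3.37 ± 0.55, adjusted p = 0.00018 by edgeR) and Mmp14 with a log2 fold change of -3.09.

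Basement membrane genes fell in 5 of 8 cases, and 0 rose, against 13.9% and 13.3% of all genes. Lama5 went from 3.95, 10.6 and 13.2 CPM in WT mesoderm to 0.687, 0.512, 0.0986 and 0.0833 CPM in WT HPCs (log2 fold change -4.76 ± 0.88, adjusted p = 0.00054 by edgeR). Lama4, Lamb1 and Nid1 fell with log2 fold changes of -2.38, -2.95 and -3.32, and Hspg2 went from 78.9, 33.9 and 39.4 CPM to 14.3, 8.58, 1.38 and 1.75 CPM. The stages overlapped for Nid1, at 1.82 to 23.5 CPM (median 3.18) in mesoderm and 0.197 to 2.66 CPM in HPCs. Its call was kept in 11 of 15 alternatives. The laminin gamma chain Lamc1 retained 11.3, 6.53, 4.64 and 7.91 CPM in HPCs against 14.4, 12.8 and 12.6 CPM in mesoderm, a log2 fold change of -0.83 ± 0.38 (edgeR adjusted p = 0.097). It was the highest member of its class per kilobase in WT HPCs, at 0.0668 ± 0.0248 CPM per kb. Collagen IV fell with the basement membrane, with log2 fold changes of -2.67 for Col4a1 and -3.09 for Col4a2.

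Other collagens were less uniform. Col23a1 fell by 2.19 on the log2 scale, with HPC libraries at 1.12, 0.64, 1.48 and 0.583 CPM. Col18a1, a basement membrane collagen that releases endostatin, was at 27.4, 7.04 and 14.2 CPM in mesoderm and at 19.7, 9.22, 6.61 and 11.8 CPM in HPCs and was not called (adjusted p = 0.55). The fibrillar chains depended on a single library. Col1a1 was at 52.5 CPM in HPC library B9.3 and at 1.02, 2.27 and 0.833 CPM in the other 3, and its log2 fold change moved from -0.46 ± 1.19 (adjusted p = 0.80) to -3.80 (adjusted p = 0.016, edgeR) without B9.3. Col1a2 turned from 0.92 to -3.77 (adjusted p = 0.046), Col3a1 from 1.04 to -4.39 (adjusted p = 0.084) and Col5a1 went from -0.37 to -2.49 (adjusted p = 0.042) in the same way.

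Of the 8 integrins 2 fell and 1 rose, against 13.9% and 13.3% of all genes. Itga5, the partner of Itgb1 in the main fibronectin receptor, fell by 1.72 on the log2 scale (adjusted p = 0.0087 by edgeR), from 6.15, 4.37 and 4.44 CPM to 1.98, 1.15, 0.888 and 2.08 CPM. Itgb5, a beta chain of vitronectin receptors, fell by 2.86 (adjusted p = 0.017). Itgb1, the beta chain shared by many matrix receptors, was at 21.5, 10.3 and 11.9 CPM in mesoderm and at 21.7, 11.9, 14.8 and 24.6 CPM in HPCs, and its log2 fold change of 0.29 ± 0.32 was not called (adjusted p = 0.52). The laminin-binding Itga6 ranged from 3.84 to 23.2 CPM in WT HPCs (log2 fold change 1.45 ± 0.80, adjusted p = 0.17), and Itga9 and Itgav were not called either. Since mesoderm and HPCs of a clone are paired, the fit was repeated with clone as a replicate block, which called 2 higher and 21 lower members. Hapln1 (adjusted p = 0.056), Itgb5 (0.069) and Sdc1 (0.062) were then not called by edgeR and Loxl2, a lysyl oxidase, was (0.042).

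**Figure D3:**
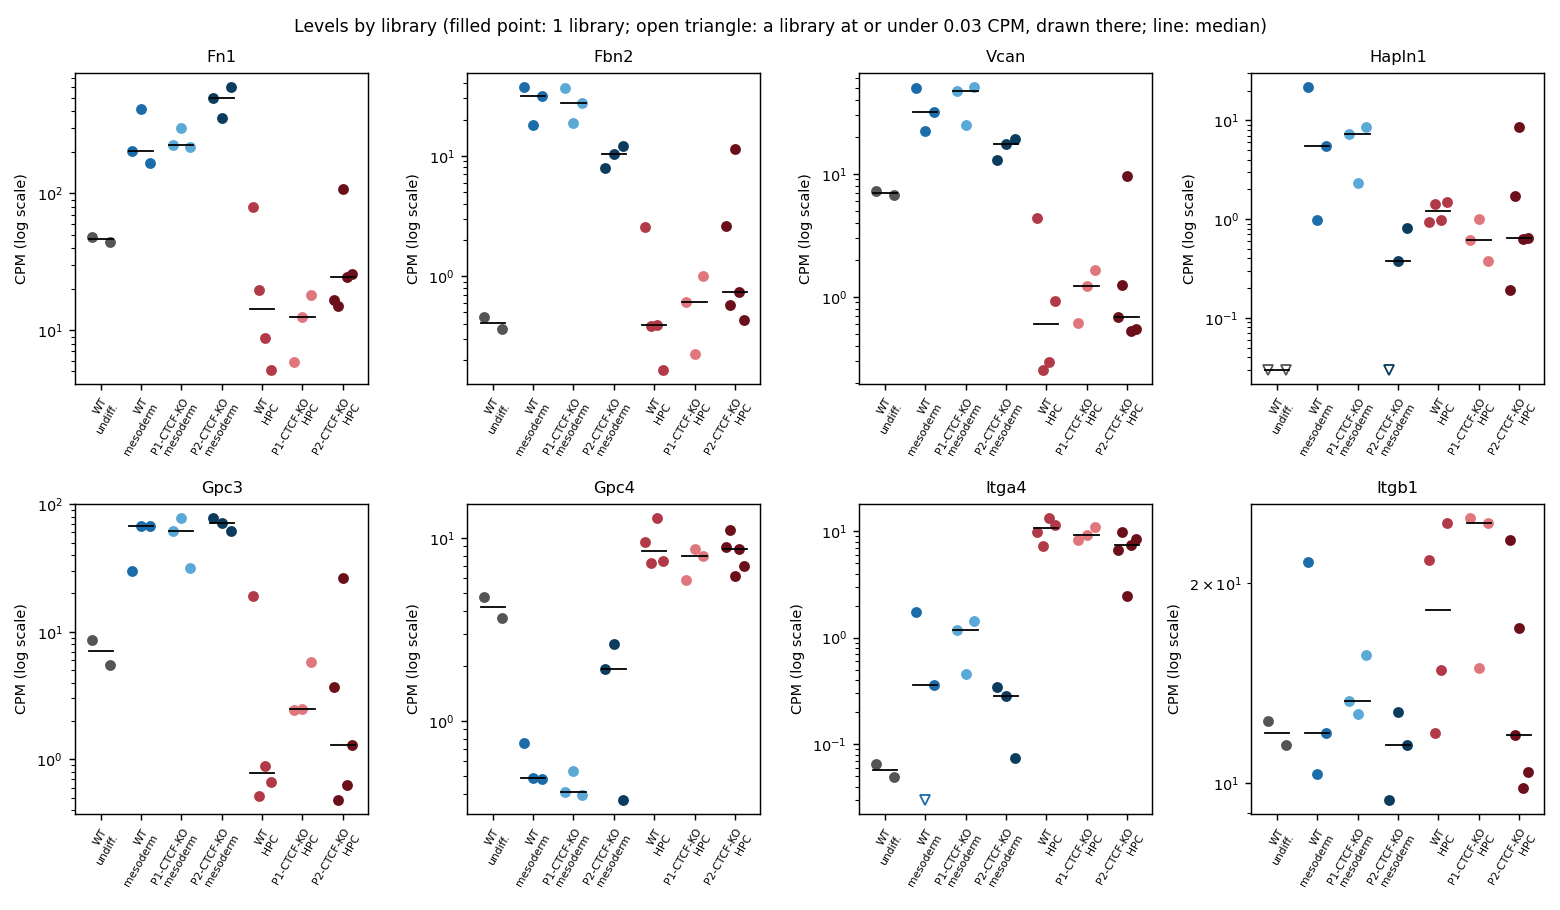
Level (CPM, log scale) of 8 members in each library; filled points are libraries, open triangles are libraries at or under 0.03 CPM and lines are medians. Fn1, Fbn2, Vcan and Gpc3 were high in mesoderm and low in HPCs apart from 1 library each of WT and P2-CTCF-KO, Gpc4 and Itga4 were high in HPCs, and the Itgb1 levels of WT mesoderm and WT HPCs overlapped.

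The same step was measured in both knockouts. In P1-CTCF-KO 3 members rose and 22 fell of 45, against 32.6% of all genes called in either direction, 16.6% higher and 16.1% lower, with a median of -2.67 against -0.07. The members called were those of WT with Itga6 in addition and without Nid1. Itga6 was at 47, 9.73 and 34.3 CPM in HPCs of P1-CTCF-KO and at 2.82, 3.71 and 6.42 CPM in its mesoderm (log2 fold change 2.80 ± 0.86, edgeR adjusted p = 0.015). Fbln1 had 0 counts in the 3 P1-CTCF-KO HPC libraries against a mean of 7.76 CPM in mesoderm and was thus at least 17.6-fold lower against the floor. With HPC clone E7.2 left out 16 members were called. With the replicate block Fbn1 (adjusted p = 0.06), Gpc3 (0.05), Hapln1 (0.068), Itga5 (0.066) and Itgb5 (0.089) were not called by edgeR and Nid2 was (0.038).

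In P2-CTCF-KO 3 members rose and 14 fell, against 28.2% of all genes called in either direction, 16.5% higher and 11.7% lower, and the median was 0.01 against 0.09. Gpc4 (log2 fold change 2.34 ± 0.38, adjusted p = 0.00013), Itga4 (4.81 ± 0.72, adjusted p = 6.8e-05) and Col18a1 (2.46 ± 0.63, adjusted p = 0.0051) rose, and Gpc1, Fbln1, Fn1, Col23a1, Mmp2 and Lama5 were the lower members with the smallest adjusted p by edgeR. Col18a1 went from 3.86, 1.5 and 4.52 CPM in P2-CTCF-KO mesoderm to 6.65 to 35.7 CPM in its HPCs. Without HPC library D2.1, 3 rose and 20 fell and the median was -1.39. Col15a1 and Postn had 0 counts in all P2-CTCF-KO mesoderm libraries, and their HPC means of 0.624 and 0.885 CPM were at least 2.64-fold and 3.74-fold higher against the floor, though neither was called. With the replicate block Itga8 was not called by edgeR (adjusted p = 0.071), while Hspg2 (0.034), Mmp14 (0.046) and Nid2 (0.023) were called lower and Postn (0.047) higher.

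Whether the step itself differed between genotypes was tested as a difference of steps. Between P1-CTCF-KO and WT, 0 of 45 members and 0% of all genes were called by edgeR, 0 members had an unadjusted p under 0.05 (3.34% of all genes), and DESeq2 called 0. Between P2-CTCF-KO and WT, edgeR called 0 members and 0.0218% of all genes, while 11 members had an unadjusted p under 0.05 (7.01% of all genes). DESeq2 called 2 members, Hapln1 and Sdc3, both with a step that was less negative in P2-CTCF-KO, and 0.403% of all genes. Sdc3 fell between mesoderm and HPCs in WT and had a log2 fold change of 0.38 ± 0.35 in P2-CTCF-KO, and the difference of the steps was 2.09 ± 0.49 (adjusted p = 0.28 by edgeR). These steps share the WT libraries, and the P2-CTCF-KO mesoderm levels described next enter each difference.

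In mesoderm, P2-CTCF-KO was compared with WT and with P1-CTCF-KO. No member was called by edgeR in either comparison (0 of 41, with 0.0342% and 0% of all 8778 genes called), while 19 and 20 members had an unadjusted p under 0.05, against 16% and 11.2% of all genes. DESeq2, the test the study used, called 6 members lower in each, against 1.89% and 1.12% of all genes. Lower in P2-CTCF-KO than in WT were Col18a1, Fbn1, Fbn2, Hapln1, Lama4 and Sdc3, and lower than in P1-CTCF-KO were Col18a1, Col1a1, Fbn1, Fbn2, Lama4 and Vcan. The median log2 fold change against WT was -0.60 for the members and 0.01 for all genes. These comparisons share the P2-CTCF-KO libraries.

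Sdc3 had the smallest adjusted p by edgeR but not by DESeq2, with 3.77, 2.67 and 3.84 CPM in WT mesoderm, 3.05, 1.81 and 2.23 CPM in P1-CTCF-KO and 1.17, 0.844 and 1.26 CPM in P2-CTCF-KO (log2 fold change against WT -1.62 ± 0.28, adjusted p = 0.077 by edgeR and 0.0057 by DESeq2). Fbn1 was at 15.6, 9.23 and 12.4 CPM in WT, 14.7, 8.23 and 12.3 CPM in P1-CTCF-KO and 3.37, 4.03 and 5.63 CPM in P2-CTCF-KO (-1.50 ± 0.28, adjusted p = 0.10 by edgeR and 0.0018 by DESeq2). Fbn2 followed it, at 37.1, 18.2 and 31.6, then 36.7, 18.6 and 27.5, and then 7.92, 10.4 and 12.1 CPM (-1.49 ± 0.31, adjusted p = 0.11 by edgeR and 0.003 by DESeq2). Both fibrillins lay below every WT and every P1-CTCF-KO library in all 3 P2-CTCF-KO libraries.

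Lama4 was at 15.1, 4.98 and 6 CPM in WT mesoderm and at 1.65, 2.16 and 2.89 CPM in P2-CTCF-KO (log2 fold change -1.96 ± 0.43, adjusted p = 0.13 by edgeR and 0.0045 by DESeq2). Col18a1 was at 27.4, 7.04 and 14.2 CPM against 3.86, 1.5 and 4.52 CPM (-2.27 ± 0.53, adjusted p = 0.13 by edgeR and 0.0036 by DESeq2). Hapln1 was at 21.6, 0.972 and 5.52 CPM against 0, 0.375 and 0.814 CPM (-4.58 ± 1.12, adjusted p = 0.14 by edgeR and 0.039 by DESeq2). All 3 genes were without overlap between the genotypes, and Hapln1 in P2-CTCF-KO lay near the floor of detection. Of the 48 members, 12 had every P2-CTCF-KO library below every WT library and 1, Nid2, had every library above, against 9.24% and 8.39% of genes with counts and 17.6% in either direction. Against P1-CTCF-KO the counts were 19 below and 4 above (Lama5, Nid2, Fn1 and Itga8), against 9.15% and 7.73% of genes, or 16.9% in either direction.

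Not every class was low. Integrins had a median log2 fold change of -0.10 against WT with 0 of 8 at an unadjusted p under 0.05 in edgeR, and DESeq2 called 0 of them. Single integrins lay apart from that median. Itga4 had a mean of 0.7 CPM in WT and 0.233 CPM in P2-CTCF-KO mesoderm, and Itga8 had 1.69 and 2.68 CPM. Fn1 was at 496, 355 and 596 CPM in P2-CTCF-KO mesoderm against 203, 415 and 168 CPM in WT, a log2 fold change of 0.90 ± 0.33 that was not called (adjusted p = 0.22 by edgeR) and whose groups overlapped. Gpc4 was at 1.93, 2.63 and 0.37 CPM against 0.754, 0.486 and 0.48 CPM (1.48 ± 0.58, adjusted p = 0.25). Gpc1, Gpc3, Fbln1, Has2 and Col23a1 had log2 fold changes of at most 0.38 in size.

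Other markers moved with these libraries. Endothelium markers (9 genes) summed to 0.482 to 0.75 CPM in P2-CTCF-KO mesoderm, with 0 or 1 of the 9 over the floor in each library, against 88.8, 2.06 and 10.4 CPM in the WT libraries of B9.3, C6.1 and C8.1, in that order, with 4.53 to 53.2 CPM in P1-CTCF-KO. Primitive streak and mesoderm markers (8 genes) summed to 82.6 to 117 CPM in P2-CTCF-KO against 28 to 53 CPM in WT. Mesenchyme and smooth muscle markers (9 genes) summed to 2.75 to 6.44 CPM against 7.29 to 9.92 CPM in WT. Extraembryonic endoderm markers (10 genes) summed to 17.8 to 24.8 CPM against 12.2 to 14.2 CPM in WT and 14 to 18.2 CPM in P1-CTCF-KO. Blood markers (9 genes) summed to 3.31 to 9.4 CPM against 8.7 to 25.5 CPM in WT, which overlapped, as did the pluripotency and cardiac muscle sums. Their part in the members' levels was not tested. With C6.1 left out edgeR called 6 members lower and 1 (Fn1) higher, and with B9.3 or C8.1 left out it called 0.

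P1-CTCF-KO mesoderm did not separate from WT. Of 41 members 0 were called by edgeR or DESeq2, 0 had an unadjusted p under 0.05 (1.91% of all genes, of which 0% were called), and 0 had groups without overlap (6.93% of genes with counts). The largest fold change in absolute size was that of Itga8, -1.04 ± 0.55 on the log2 scale. In HPCs, edgeR and DESeq2 called 0 of 35 members and 0% of all 7422 genes in each of the 3 comparisons between genotypes. At an unadjusted p under 0.05 in edgeR there were 0 members between P1-CTCF-KO and WT (3.5% of all genes), 1 (Col4a2) between P2-CTCF-KO and WT (1.95%) and 3 (Col4a1, Col4a2 and Lama4) between the knockouts (8.76%), the last named after their values were seen. All 3 were highest in P2-CTCF-KO library D2.1, at 39.8, 32.4 and 8.72 CPM against group medians of 4.24, 2.81 and 1.96 CPM. Only Col4a2 had every P2-CTCF-KO library above every P1-CTCF-KO one (2.81% of genes with counts). Without D2.1 the median log2 fold change of the members went from 0.38 to -0.36 against WT. Against P1-CTCF-KO it went from 0.72 to -0.12.

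**Figure D4:**
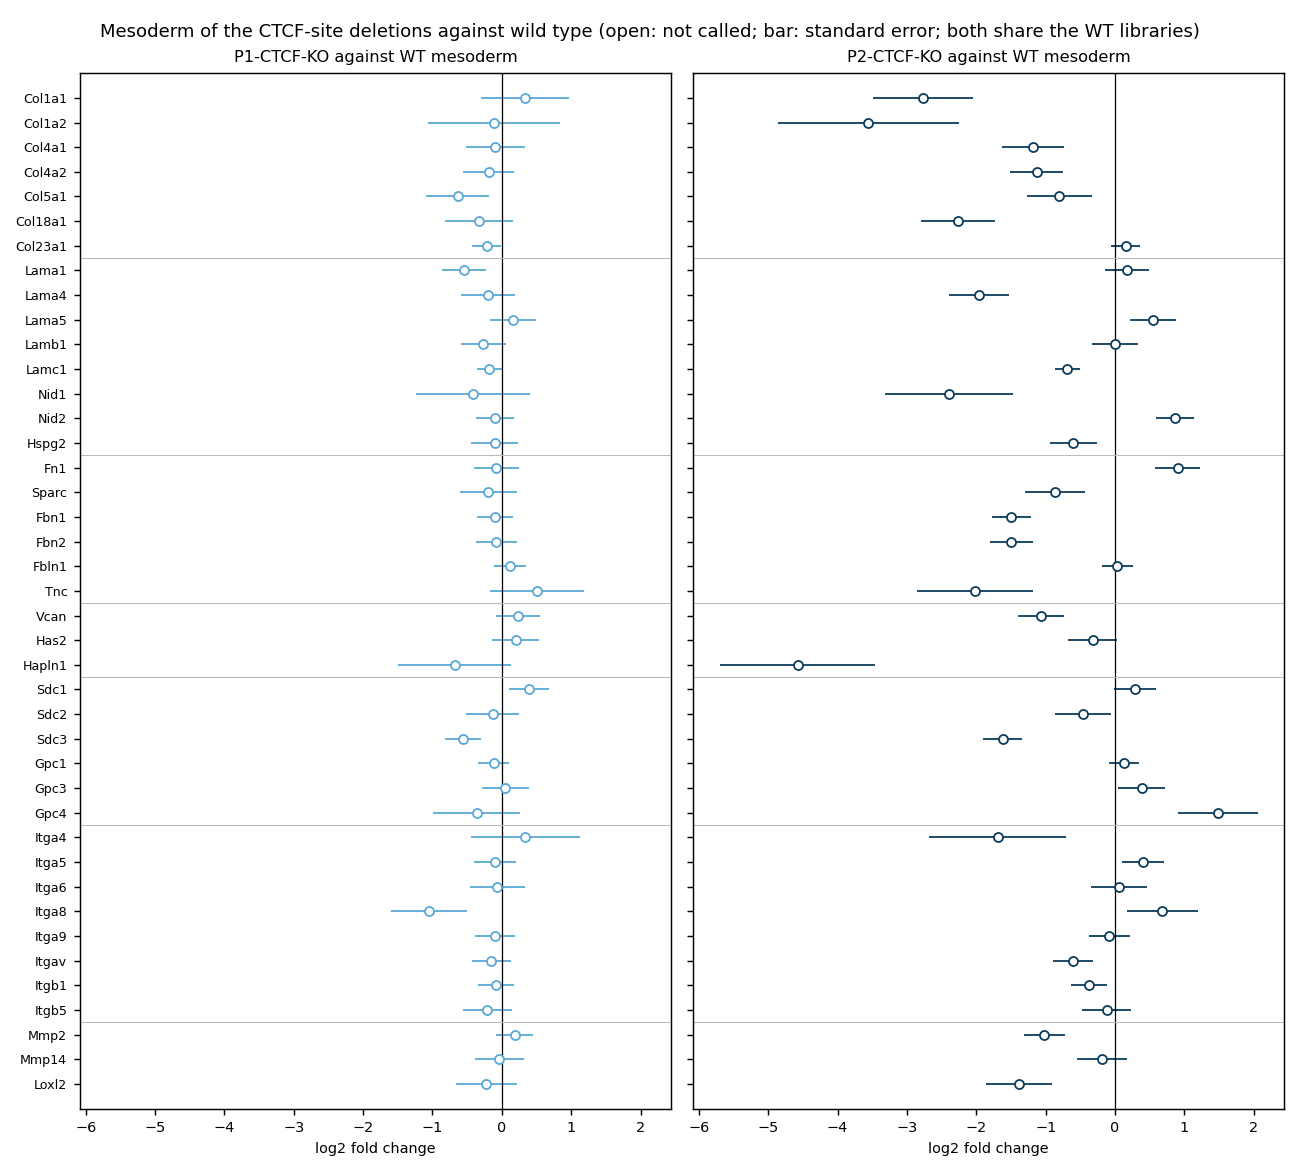
Log2 fold change of each member tested in mesoderm of P1-CTCF-KO (left) and P2-CTCF-KO (right) against the same WT libraries, on 1 scale, with its standard error; open points were not called by edgeR. Points lie near 0 in the left panel, and in the right panel Sdc3, both fibrillins, Lama4, Col18a1 and Hapln1 lie left of 0 while the median of the integrins lies near it.

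Where a clone had a first and a second HPC library, the levels of the members differed. WT HPC library B9.3 summed to 423 CPM over the 48 genes and B9.3-2 to 117 CPM, a ratio of 3.6, and 40 of 46 members over the floor were higher in B9.3. P2-CTCF-KO library D2.1 summed to 544 CPM and D2.1-2 to 109 CPM, a ratio of 4.99, with 42 of 46 higher in D2.1. D10.1 and D10.1-2 summed to 230 and 101 CPM, a ratio of 2.28, with 33 of 41 higher in D10.1. Over all genes the earlier-named library was higher for 53.7%, 51.2% and 52.3% of genes. The labels mark each of these libraries as a biological replicate, and the paper counts the HPC libraries as independent experiments. How the first and second library of a clone differed in handling is not described further.

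The genes that led differed between the libraries. In B9.3 the fibrillar set stood out, with Col1a1 at 52.5 CPM against 1.02 CPM in B9.3-2, Col1a2 at 27.8 against 0.128 CPM, Col3a1 at 13.1 against 0 CPM and Postn at 19.3 against 0.384 CPM. In D2.1 basement membrane genes and matrix glycoproteins were high together, with Nid1 at 16.4 against 0.317 CPM in D2.1-2, Col4a1 at 39.8 against 3.59 CPM, Hspg2 at 46.8 against 5.07 CPM and Tnc at 14.9 against 0.317 CPM. Mesenchyme and smooth muscle markers summed to 16.7 CPM in B9.3 against 1.08 to 1.41 CPM in the other WT HPC libraries, with 6 of 9 over the floor against 1. Endothelium markers summed to 67 CPM in D2.1 against 9.61 to 27.4 CPM in the other P2-CTCF-KO HPC libraries, with 9 of 9 over the floor against 5, and its mesenchyme sum was 11.4 CPM against 0.739 to 5.82 CPM. Itga4 and Gpc4 went the other way in D2.1, at 2.44 and 6.21 CPM, the lowest of the P2-CTCF-KO HPC libraries. The part of these markers in the members' levels was not tested.

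**Figure D5:**
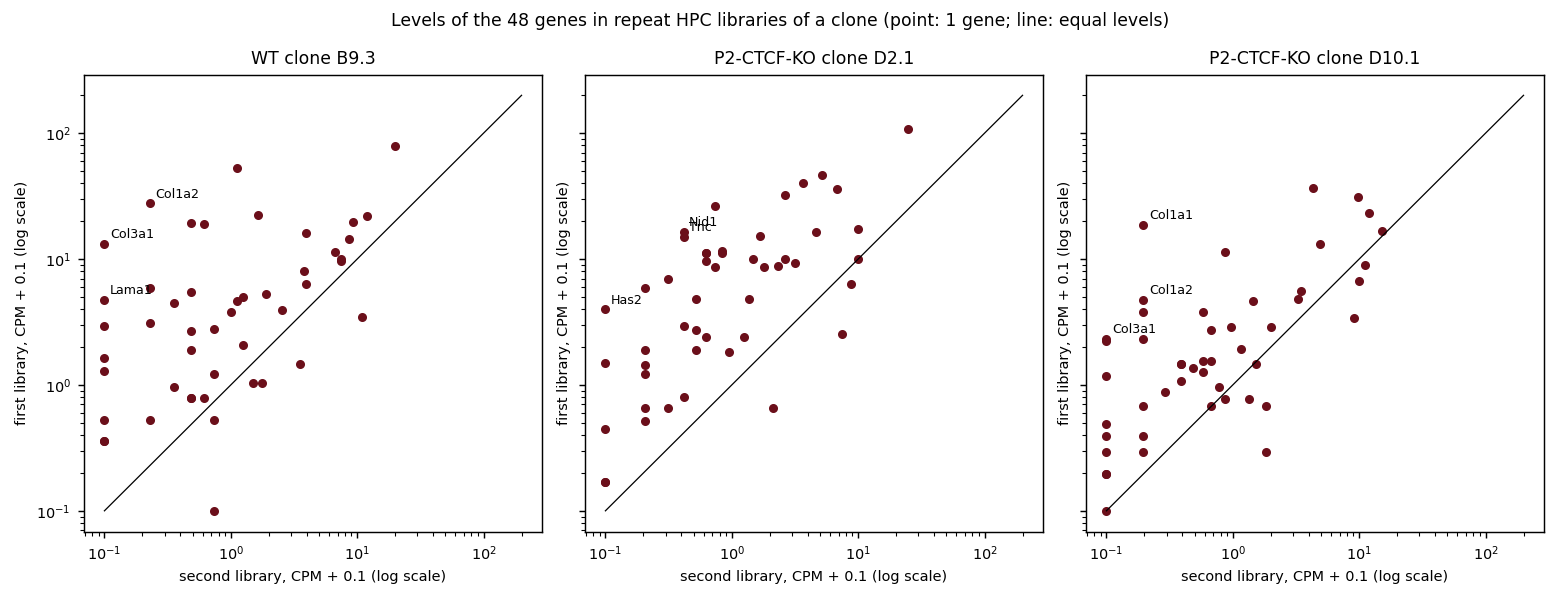
Level of each of the 48 members in the library named for the clone (vertical) against its second library (horizontal), HPCs of WT clone B9.3 and P2-CTCF-KO clones D2.1 and D10.1, in CPM + 0.1 on log scales; the line marks equal levels and the 3 genes farthest from it are named. Most points lie above the line, 40, 42 and 33 members being higher in the library named for the clone.

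Other genes of the matrix and of adhesion were taken from 7 wider lists. Integrins of blood cells rose between WT mesoderm and HPCs in 4 of 5 tested, 1 of them the sort marker Itga2b, where 13.3% of all genes were called higher and 13.9% lower. The 10 genes of this list together summed to only 0.486 to 2.2 CPM in WT mesoderm. The count filter thus favoured those high in HPCs, which were sorted on CD41, so these shares cannot be compared as a test. Itgb3, the beta chain that pairs with CD41 in the platelet fibrinogen receptor, went from 0.277 ± 0.303 CPM (SD, n = 3) to 80.4 ± 37.4 CPM (n = 4), a log2 fold change of 7.91 ± 0.96 (adjusted p = 1.5e-05 by edgeR). Itgb2, the beta chain of leukocyte integrins, had 0 counts in WT mesoderm and 3.2 to 5.58 CPM in HPCs, and Itgal, its alpha L partner, had 0 counts and 0.395 to 1.46 CPM. Together with Itga4 these receptors rose where Itga5 and Itgb5 fell.

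Of the wider matrix glycoproteins and proteoglycans 6 rose and 3 fell among 15 tested, against the same 13.3% and 13.9% of all genes. Thbs1, a thrombospondin abundant in platelet granules, was at 9.81 ± 2.24 CPM in undifferentiated cells, 0.276 ± 0.144 CPM in mesoderm and 147 ± 98.3 CPM in HPCs (log2 fold change between the latter 8.85 ± 1.02, adjusted p = 9.1e-06 by edgeR). Vwf, which encodes von Willebrand factor, rose from 0.736 ± 1.17 to 38.2 ± 21.7 CPM, and the latent TGF-beta binding protein Ltbp2 rose to 8.02 ± 2.67 CPM. Fbln2 fell with Fbln1, with a log2 fold change of -5.32 (adjusted p = 0.0035). The summed level of this list rose from 19.1 to 38.8 CPM in WT mesoderm to 114 to 385 CPM in WT HPCs, Thbs1 and Vwf holding much of the latter. The sum of the member glycoproteins fell, but it was mostly Fn1, at a mean of 262 CPM in WT mesoderm against a median sum of 274 CPM. The contrast of the 2 sums thus follows few genes.

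Among genes of integrin adhesion and signalling 9 rose and 4 fell of 20, again against 13.3% and 13.9%. The kindlin of blood cells Fermt3 rose from 0.555 ± 0.486 to 16.2 ± 2.97 CPM, whereas the kindlin Fermt2 fell by 2.79 on the log2 scale. The kinase Ptk2b and the adaptor Lims1 rose by log2 fold changes of 5.04 and 3.10, and talin 2 (Tln2) fell by 3.79 while Tln1 rose. Of genes for collagen maturation and matrix turnover 1 rose (Timp3, an inhibitor of metalloproteinases) and 8 fell of 21, among them the metalloproteinase Mmp15 and the heparan sulfatases Sulf1 and Sulf2, by 4.55, 4.96 and 2.95 on the log2 scale. Of the other collagens 3 fell and 0 rose of 8 tested, the lower ones being Col4a6, Col13a1 and Col24a1. The other laminins and basement membrane genes gave 4 lower and 0 higher of 7 (Frem2, Pxdn, Lamb2 and Smoc1), and the remaining receptors 4 lower and 0 higher of 9 (Gpc6, Dag1, Itgb8 and Stab1).

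In the step from undifferentiated cells to WT mesoderm the wider lists were mixed. Other collagens gave 5 higher and 4 lower of 18, other laminins 3 and 3 of 12, other glycoproteins 4 and 6 of 21, adhesion genes 3 and 3 of 21, maturation and turnover genes 6 and 2 of 32, other receptors 2 and 2 of 12, and blood cell integrins 2 and 1 of 6, where 10.7% of all genes were called higher and 13.7% lower. Gpc6, a glypican, rose from 6.2 ± 3.2 to 76.6 ± 11.9 CPM with the member glypican Gpc1.

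Accessible chromatin was compared with expression, using ATAC-seq peaks that had been called on merged libraries (4 of mesoderm and 2 of HPCs), 1 list per stage of 76766 and 29037 peaks without heights, so that a replicate check was not possible. The lists differ in size, and depth and accessibility cannot be told apart in them. In mesoderm 40 of 48 members (83.3%, Wilson 95% interval 70.4 to 91.3) had a peak within 1 kb of an annotated start, and in HPCs 15 (31.2%, 19.9 to 45.3). Of 8043 genes tested for expression between these stages and matched to a start, the shares were 92.4% and 71.4%. Thus 25 members (52.1%) had a start peak in mesoderm alone, against 21.9% of those genes. In HPCs alone 0 of 48 had one (Wilson upper bound 7.41%), near the 0.945% of those genes.

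The 15 members with a start peak at both stages were Col5a1, Lama1, Lama4, Lamc1, Nid2, Fn1, Vcan, Sdc2, Gpc3, Itga4, Itga8, Itga9, Itgav, Itgb1 and Mmp2, and 8 had none (Col3a1, Col4a1, Col4a2, Col5a2, Col6a2, Col15a1, Tnc and Sdc3). For Itga9 and Vcan the HPC peaks lay at annotated starts inside the gene, 232928 bases from the gene start in Itga9 and 1968 and 2120 bases in Vcan. At the gene start itself both had peaks in mesoderm alone. Gpc4, whose RNA was higher in HPCs, had a start peak in the mesoderm list alone, at chrX:49518416-49518659. Gpc3, whose RNA was lower in HPCs, had start peaks in both lists, that of HPCs at chrX:49967426-49967523. Itga4 had peaks over its start at both stages, at chr2:79095619-79095816 in mesoderm and chr2:79095659-79095760 in HPCs. Over the spans of the members, 28 of 210 mesoderm peaks also overlapped an HPC peak (13.3%, 9.39 to 18.6), against 25.8% of mesoderm peaks over the genome. For ATAC-seq the labels name E14-TG2a but the Methods name a derived line that carries a reporter transgene in the Col1a1 locus, so the mesoderm peak within Col1a1, 914 bases from its start, cannot be told apart from an effect of such an insertion.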

How the data were processed

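Poly(A)-minus RNA was sequenced as 23 directional paired-end libraries. Per the Methods and the file headers, the authors aligned the reads with STAR (mm9), discarded PCR duplicates and assigned the rest to exons and introns with featureCounts, and deposited raw counts per gene. The annotation and the strand setting are not given in the sources used here, so reads from overlapping genes on opposite strands cannot be told apart. Peaks of open chromatin were called by the authors with MACS2 on merged libraries with inserts under 100 bp and were deposited as intervals without heights.

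Counts were tested with edgeR 4.0.16 (R 4.3.3; limma 3.58.1) by the quasi-likelihood test after TMM scaling and filterByExpr with a minimum count of 10. Benjamini-Hochberg adjustment ran over all genes of a fit, and a call needed an adjusted p under 0.05 with a log2 fold change beyond 1 in size. Undifferentiated cells were compared within the 9 WT libraries, stage steps and their differences within the 21 mesoderm and HPC libraries, and genotypes within each stage. Errors are standard errors for fold changes and SD for levels. Alternatives were DESeq2 1.42.0, its size factors, no filter, other sets of libraries, no limit on fold change, a clone block and leaving out each library. DESeq2 was the test the study had used. Code for the tests was checked on simulated data.

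Samples were grouped by their labels. Clones are separate lines. Repeat HPC libraries of a clone are labelled as biological replicates but share that line, and the undifferentiated pair is labelled as technical replicates. The p-values therefore measure the spread between these samples. Mesoderm and HPCs of a clone come from the same line and are therefore paired. Deviations of same-clone libraries from their group means correlated weakly (r from -0.0242 to 0.102 over 12543 genes, across genes, which are not independent replicates). The clone block was an alternative, not the chosen fit.

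Members and lists were chosen with earlier results of these data known. By rule the text names members by class: those called between genotypes, those with the smallest adjusted p of each class in a stage step (up to 4), the highest per kilobase in mesoderm and HPCs, and up to 4 genes of each wider list with the smallest adjusted p. Any other gene, including those called by DESeq2 alone or moved by 1 library, was named after its values were seen. Promoter letters were read from the mm9 reference (NCBIM37) before the annotated start. Starts for peaks were matched by name for 20093 genes of GENCODE vM1. CTCF peaks of another cell line were not used.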

Additional observations from a re-analysis of the deposited data

Results flagged for a closer look

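Single libraries far from the rest of their group were looked for in the WT and P2-CTCF-KO HPC groups, by the gap of the extreme library over the range of its group (Dixon's 95% critical value). Chance flags about 1 group in 20, the members are not independent of one another, and groups of 3 libraries were not tested. Of the libraries that stood out, B9.3 of WT did so for 16 members, D2.1 of P2-CTCF-KO for 20, D10.1 of P2-CTCF-KO for 3 and B9.3-2 of WT for 1.

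HPC library B9.3 of WT lay above its group in the sum of the 48 members (423 CPM), in the collagen sum (155 CPM) and in the matrix glycoprotein sum (113 CPM). Its collagens were Col1a1 at 52.5, Col1a2 at 27.8, Col3a1 at 13.1, Col5a1 at 22.2, Col5a2 at 5.76 and Col6a1 at 0.258 CPM. Its glycoproteins were Postn at 19.3, Fbn1 at 5.33, Sparc at 4.55, Fbn2 at 2.58 and Fbln1 at 0.429 CPM. Lama1 at 4.64, Vcan at 4.38, Has2 at 1.55, Sdc2 at 3.01 and Gpc3 at 18.9 CPM stood out in the same library. In library B9.3-2 Col15a1 was apart at 0.64 CPM.

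HPC library D2.1 of P2-CTCF-KO lay above its group in the sums of glycoproteins (159 CPM), laminins and basement membrane (122 CPM), proteoglycans (38.1 CPM) and the hyaluronan and versican genes (22.1 CPM). Among basement membrane genes, collagen IV included, Hspg2 was at 46.8, Col4a1 at 39.8, Col4a2 at 32.4, Nid1 at 16.4, Lamb1 at 11, Nid2 at 10, Lama4 at 8.72 and Lama5 at 6.84 CPM. Among the glycoproteins Fn1 was at 107, Tnc at 14.9, Fbn2 at 11.4, Sparc at 11.1 and Fbln1 at 1.33 CPM. Vcan at 9.56, Hapln1 at 8.58, Has2 at 3.91, Gpc3 at 26.3, Itga5 at 4.75, Mmp14 at 2.3 and Col6a1 at 0.0698 CPM also stood out, the last below the floor of 3 counts.

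In library D10.1 of P2-CTCF-KO Itga6 was high at 36.3 CPM and Col3a1 at 2.23 CPM, and Itga9 was low at 3.3 CPM.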

How the results depend on the processing

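For the comparisons with members called, counts stayed within 1.5 times of the reported ones in 53 of 56 alternatives. For those with 0 called, 118 of 124 alternatives gave 0 and 6 gave calls, by edgeR or DESeq2. Among called members 1005 fold changes kept their call, 142 lost it and 0 turned sign. For WT mesoderm against undifferentiated cells the count of 22 became 6 and 7 with either undifferentiated library left out (6 to 20 over all libraries) and 33 with no filter. For WT HPCs against mesoderm it was 18 to 34 over libraries left out, and 15 to 23 in P2-CTCF-KO. In P1-CTCF-KO it was 16 to 22, with 16 lacking HPC clone E7.2. Between P2-CTCF-KO and WT mesoderm 0 calls became 6 by DESeq2, 15 with no filter and 7 without WT clone C6.1 (0 to 7). Between the knockouts in mesoderm 0 became 6 by DESeq2 and 11 with no filter, and for the P2-CTCF-KO stage step 0 became 2 by DESeq2. The causes were not tested. With clone as a replicate block the counts were 23 in WT, 21 in P1-CTCF-KO and 20 in P2-CTCF-KO, and 0 for both differences of steps, and the pairing changed no other call than those named. With peaks wider than the list's median, 32 rather than 40 members had a mesoderm start peak. The levels per kilobase and the Hapln1 bound without B9.3 were added after seeing the data. Depth set the lowest level detectable, 0.209 to 0.608 CPM in HPC libraries.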
